A study of Homo sapiens with 6 samples.

Results

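The IL1 receptor and IL36 cluster genes are 10 genes on chromosome 2 that encode receptors, ligands and antagonists of the interleukin-1 family. They were taken as a named list of 10 among 19111 autosomal protein-coding genes. Accessible chromatin was read around each of them in MCF-10A, a non-tumorigenic human breast epithelial cell line, by ATAC-seq, an assay that reads where the enzyme Tn5 can insert into DNA. The groups were a knock-in of PIK3CA E545K, a knock-in of PIK3CA H1047R and parental cells with wild-type PIK3CA (WT), with 2 samples each and 6 in all. Both samples of a genotype were pooled into 1 peak list, so no value had a replicate, sequencing depth was unknown, and every difference given here compares 3 lists without a test. The knock-ins were grown without EGF, and the WT cells with EGF at 20 ng/ml. All then spent 24 h in 0.2 ng/ml EGF, 1% stripped serum, insulin, 0.5 µg/ml hydrocortisone and cholera toxin. Genotype and maintenance medium therefore cannot be told apart. The labels do not say how many clones stand for each knock-in, and the edited bases cannot be seen in a peak list.

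Receptors of this family bind their ligand, recruit a shared or paired accessory chain such as IL1RAP, and signal through MYD88 and IRAK kinases to NF-kappaB and MAP kinases. The system is held in check by natural antagonists and by a decoy receptor. In surface epithelia, IL-1 and IL-36 signalling drives chemokine, antimicrobial peptide and acute inflammatory gene expression.

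A gene's peaks were those overlapping its body in hg38 (GENCODE) plus 20 kb on each side, and its promoter was the start of its canonical transcript plus and minus 1 kb. The gene windows overlap and join into 3 stretches of 616 kb in all. IL1R2, IL1R1 and IL1RL2 lie in chr2:101971960-102260002, IL1RL1 and IL18R1 in chr2:102291502-102418777, and IL36G, IL36A, IL36B, IL36RN and IL1RN in chr2:112953203-113154016. All lie on the plus strand except IL36B. The E545K list held 38 peaks there of 89416, the H1047R list 43 of 106747 and the WT list 45 of 98910. Peaks covered 4.07% of these windows in E545K, 4.30% in H1047R and 4.18% in WT, against 2.42%, 2.52% and 2.34% of the autosomes in the same lists. The joint windows were thus more densely covered than the autosomes at large in each list, and by similar shares in the 3 genotypes. Taken gene by gene, the windows had a lower median covered share than those of all genes. The median covered share of the 10 gene windows was 2.14% in E545K, 2.94% in H1047R and 3.10% in WT. Over the same windows of all 19111 genes it was 3.96%, 4.44% and 4.12%. The peak nearest inside the outer edges lay 0.996 kb within the IL1R2 window in E545K, 0.778 kb in H1047R and 1.02 kb in WT, with areas of 1841, 1824 and 1646. The nearest outside lay 2.93 kb past the IL1RN window, with areas of 2986, 3854 and 3476.

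Each peak carries the authors' area under the peak caller's curve, which depends on width and height and is not a read count. The smallest area was 200 in each list, so a missing peak means that none reached that size. A site open in part of the cells and one weakly open in each cell cannot be told apart. Epithelial and basal markers carried promoter peaks more often than markers of other cell types. Among 12 epithelial and basal markers, the same 11 carried one in all 3 lists. Of all genes, 67.7% carried one in E545K, 68.1% in H1047R and 67.4% in WT. TP63, a basal marker, carried none. Its nearest peak lay 42.6 kb from the start in E545K and 33.0 kb in H1047R and WT. The KRT14 peaks were small, with areas of 320 in E545K, 231 in H1047R and 377 in WT. Of 13 leukocyte, endothelial and fibroblast markers, 4 carried a promoter peak in E545K, 3 in H1047R and 4 in WT. Among them, CD14, COL1A1 and COL1A2 had one in each list, and PTPRC, CD3E and PECAM1 had none in any.

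Sequences at or next to accessible sites of these genes are shown here as hg38 plus-strand windows, read 5′ to 3′. They were chosen because they hold summits of large peaks or lie just before starts whose peaks were not found in every list. Capitals mark matches to AP-1 (TGANTCA), TEAD (GGAATG), STAT (TTCNNNGAA) or glucocorticoid receptor (GNACA and TGTNC, 3 bases apart) motifs on either strand; where there are none, no match to the 10 motifs searched was found.
IL1R1 first start, summit of all 3 lists, chr2:102064249-102064449: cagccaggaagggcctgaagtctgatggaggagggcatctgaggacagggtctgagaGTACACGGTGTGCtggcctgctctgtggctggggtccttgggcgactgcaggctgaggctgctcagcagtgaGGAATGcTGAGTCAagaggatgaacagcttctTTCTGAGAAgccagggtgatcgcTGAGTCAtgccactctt
IL1RL2, bases before the first annotated start, chr2:102186806-102187005: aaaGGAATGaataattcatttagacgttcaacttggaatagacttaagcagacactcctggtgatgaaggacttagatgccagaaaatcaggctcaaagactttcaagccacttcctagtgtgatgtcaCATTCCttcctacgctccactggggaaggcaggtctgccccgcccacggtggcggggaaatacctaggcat
IL1RL2, H1047R summit after the start, chr2:102187960-102188160: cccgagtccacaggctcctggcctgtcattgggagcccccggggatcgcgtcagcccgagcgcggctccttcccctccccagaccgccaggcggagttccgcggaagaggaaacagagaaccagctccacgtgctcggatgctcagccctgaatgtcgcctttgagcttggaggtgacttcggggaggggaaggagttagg
IL36G first start, chr2:112972435-112972635: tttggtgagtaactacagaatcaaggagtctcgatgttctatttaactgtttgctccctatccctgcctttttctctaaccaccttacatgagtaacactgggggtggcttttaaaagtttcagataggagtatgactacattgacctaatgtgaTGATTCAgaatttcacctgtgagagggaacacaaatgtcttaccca
IL36RN, bases before the first annotated start, chr2:113058438-113058637: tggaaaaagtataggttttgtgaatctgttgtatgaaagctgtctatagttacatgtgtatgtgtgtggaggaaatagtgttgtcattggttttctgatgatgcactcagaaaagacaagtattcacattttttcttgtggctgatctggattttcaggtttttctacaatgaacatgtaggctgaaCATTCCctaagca
IL36RN to IL1RN gap, H1047R and WT summit, chr2:113078004-113078204: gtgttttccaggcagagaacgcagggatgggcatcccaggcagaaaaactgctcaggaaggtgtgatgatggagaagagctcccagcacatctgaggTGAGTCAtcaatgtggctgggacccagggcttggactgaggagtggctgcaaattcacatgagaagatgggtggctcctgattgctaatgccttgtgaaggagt
IL36RN to IL1RN gap, E545K summit, chr2:113078633-113078833: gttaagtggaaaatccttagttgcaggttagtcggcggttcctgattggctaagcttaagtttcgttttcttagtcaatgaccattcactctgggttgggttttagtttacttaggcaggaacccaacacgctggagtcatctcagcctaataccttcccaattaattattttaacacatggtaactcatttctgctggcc
IL1RN, bases before the first coding start, chr2:113117693-113117892: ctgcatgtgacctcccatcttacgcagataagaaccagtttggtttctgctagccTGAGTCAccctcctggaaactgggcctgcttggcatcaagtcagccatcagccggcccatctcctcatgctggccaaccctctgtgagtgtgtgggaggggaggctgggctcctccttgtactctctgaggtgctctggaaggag

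Most promoters of these genes had no peak. A canonical promoter peak was found for 2 of the 10 genes in E545K (IL1R1 and IL18R1), for 3 in H1047R (also IL1RL2) and for 4 in WT (also IL1RL2 and IL36RN). Of all 19111 genes, 67.7% had one in E545K, 68.1% in H1047R and 67.4% in WT. IL1R2, IL1RL1, IL36G, IL36A, IL36B and IL1RN had none in any list, as did 30.0% of all genes. Counting any annotated start, a peak lay within 1 kb of a start in 5 genes in E545K, 5 in H1047R and 7 in WT, against 73.2%, 74.0% and 73.2% of all genes. The difference between the canonical and the wider count comes from IL36G and IL1RN, which had peaks at upstream starts in each list, and from minor starts of IL1R2, near a peak in E545K and WT.

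**Figure D1:**
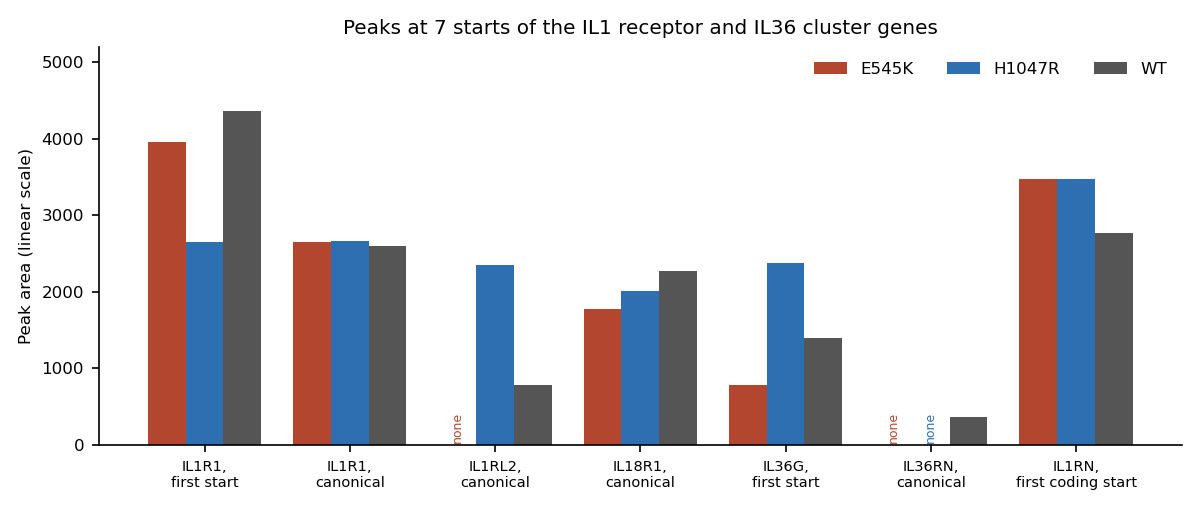
Area of the peak at 7 starts of the IL1 receptor and IL36 cluster genes, minor starts of IL1R2 not shown (linear scale, 1 pooled list per genotype, no error bars possible); "none" marks lists without a peak. IL1R1, IL18R1, IL36G and IL1RN had a start peak in each list, IL1RL2 in H1047R and WT, and IL36RN in WT alone.

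IL1R1, the signalling receptor for IL-1 (ENSG00000115594.12, 102064544 to 102179874), had the highest covered share of the receptor genes in each list. Its window held 14 peaks in E545K, 14 in H1047R and 16 in WT, which covered 6.67%, 6.29% and 7.52% of it. The median over all genes was 3.96%, 4.44% and 4.12% covered in the same lists. The peak at its canonical start (102142746) had an area of 2653 in E545K, 2659.9 in H1047R and 2606 in WT, with the summit at −19 bp from the start in each list. This promoter was alike in the 3 lists.

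The upstream first start of IL1R1 at 102064544 carried the largest peak of all the windows in E545K, with an area of 3965, and in WT, with 4360.5, while H1047R had 2658. The summit −log10 p was 8.81 in E545K, 7.71 in H1047R and 9.37 in WT, and in each list the summit lay at the same base, at −195 bp from the start. Areas of different lists depend on their depth, so peaks were also ranked by area among the 69662 regions that held exactly 1 peak of each list, from 0 (smallest) to 100. The first-start peak of IL1R1 had a rank of 93.1 in E545K, 83.7 in H1047R and 93.1 in WT. Thus H1047R stood lower in its own list than E545K and WT did in theirs.

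The same order ran along IL1R1. All 10 ranked regions of its window had a higher rank in E545K than in H1047R, with a median difference of 12.8 points, where 49.7% of all regions did so. In H1047R, 9 of the 10 had a lower rank than in WT, with a median difference of −9.38, and the share above WT among all regions was 48.0%. In E545K, 7 of the 10 ranked above WT, against 47.7% of all regions. Ranked by summit value, the region at chr2:102082627-102083545 stood 15.3 points lower in E545K than in H1047R, and the others kept their order. Against WT, H1047R then stood 36.3 points higher there and 7.97 points higher at the canonical start, and lower at the others. These regions share a gene and a list and are not independent. Unranked regions of the window did not all keep this order. At chr2:102127490-102128338, WT had 1 peak of area 1901, while 2 peaks each summed to 1248 for H1047R and 792 for E545K. The IL1RL2 start, also inside this window, had an H1047R peak of 2348 and no E545K peak. The other way, small peaks of E545K alone, with areas of 292 and 310, lay at chr2:102050081-102050409 and chr2:102098848-102099072. The widest rank difference by area, chosen after the values were seen, was a peak inside IL1R1 at chr2:102080485-102080947. It had an area of 697 and a rank of 48.5 in E545K, 299.98 and 5.53 in H1047R, and 837 and 48.8 in WT.

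IL1R2, the decoy receptor that binds IL-1 without signalling (ENSG00000115590.14, 101991960 to 102028544), had no peak at its canonical start. The nearest lay 5.22 kb away in E545K and H1047R and 5.27 kb away in WT. Its window held 9, 10 and 10 peaks in E545K, H1047R and WT. The only strong H1047R peak of all the windows without a WT partner lay upstream of the gene, at 101980326 to 101980817. This site is inside LINC01127, a long noncoding RNA gene (101962052 to 101987167). Strong means the upper 50% of a list by area, and a partner is a peak that overlaps by at least 1 bp. The H1047R peak had an area of 960, and E545K had a peak of 421 there.

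IL1RL2, the receptor for IL-36 (ENSG00000115598.10, 102187006 to 102240002), was the gene whose start differed most between the lists. Its promoter had no peak in E545K, a peak of area 2348 in H1047R and one of 789 in WT. The nearest E545K peak lay 20.3 kb from the start. The H1047R peak stood at the 85.3 percentile of its list by area and the WT peak at 57.0. Both were broad, with widths of 1306 bp in H1047R and 1247 bp in WT. The summit −log10 p was 4.29 in H1047R, where the list median was 4.14, and 2.73 in WT, where it was 4.25, so the WT peak was low for its list. Their summits lay 1037 bp and 367 bp downstream of the start. A promoter peak in H1047R and WT and not in E545K was found for 0.848% of all genes. By contrast, an intronic peak of IL1RL2 was large in each list, with areas of 3339.8 in E545K, 3572 in H1047R and 3408 in WT and ranks of 90.5, 89.6 and 89.1. The gap at the IL1RL2 start in E545K therefore did not extend to this site.

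IL18R1, the ligand-binding chain of the IL-18 receptor (ENSG00000115604.12, 102311529 to 102398777), had a promoter peak of area 1772 in E545K, 2009.8 in H1047R and 2278 in WT, with ranks of 77.6, 77.0 and 80.8. IL1RL1, the receptor for IL-33 (ENSG00000115602.17, 102311502 to 102352037), had no peak within 1 kb of any of its 9 annotated starts in any list. The nearest peak to its canonical start lay 16.1 kb away in E545K, 6.21 kb in H1047R and 1.52 kb in WT. A shared peak 16.3 kb upstream of IL1RL1, chosen after its values were seen, had an area of 325 in E545K, 472 in H1047R and 901 in WT. Its rank was 17.0 in E545K, 20.3 in H1047R and 51.9 in WT, a lower place in both knock-ins than in WT.

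**Figure D2:**
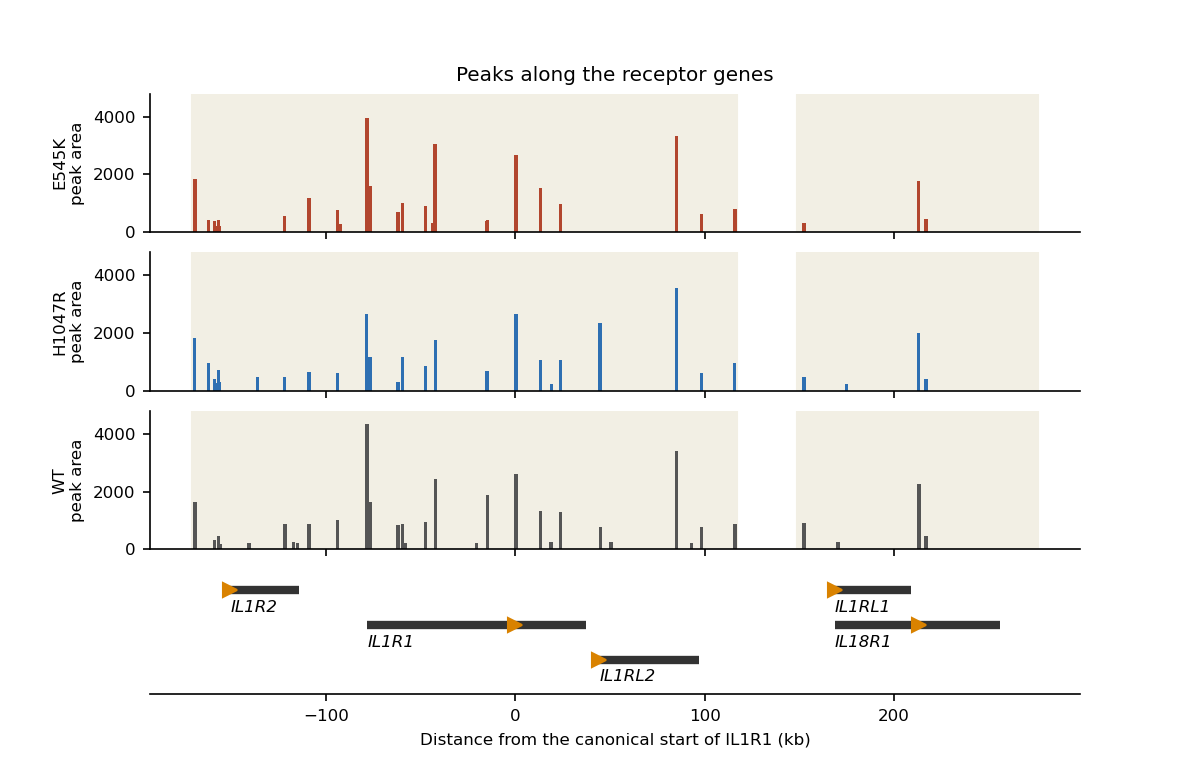
Area of each peak along the 5 receptor genes in E545K, H1047R and WT (linear scale), against distance from the canonical IL1R1 start in kb; shading marks the gene windows, bars below mark gene bodies and arrowheads canonical starts. The larger peaks of IL1R1 were found in each list, and the bar at the IL1RL2 start is missing in E545K and taller in H1047R than in WT.

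Of the IL-36 agonists, only IL36G had an accessible start. IL36G (ENSG00000136688.11, 112973203 to 112985658) had a peak at its first annotated start, at −4.80 kb from the canonical one, of area 783 in E545K, 2373 in H1047R and 1397 in WT. Its rank was 52.9 in E545K, 81.2 in H1047R and 67.5 in WT, and the summit lay at −667 bp from that start in both knock-ins and at −668 bp in WT. E545K thus had the lowest and H1047R the highest place, the order also seen at the IL1RL2 start. IL36A (ENSG00000136694.9, 113005459 to 113008044) had no peak in its window in any list, and the nearest lay 32.0 kb from its start in each. IL36B (ENSG00000136696.11, 113022089 to 113052867, minus strand) had 2 window peaks in E545K, 2 in H1047R and 3 in WT, all outside its body.

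IL36RN, the antagonist of the IL-36 receptor (ENSG00000136695.15, 113058638 to 113065382), had a promoter peak in WT alone, as did 0.570% of all genes. That peak was small, with an area of 368, a width of 288 bp and a rank at the 26.7 percentile of the WT list. The nearest knock-in peaks lay 9.60 kb away in E545K and 9.59 kb away in H1047R. A larger site lay beyond the gene, in the gap between IL36RN and IL1RN, at chr2:113077617-113079592. It was 1 peak in E545K, of area 3525, and 1 peak in H1047R, of area 4239, while WT had 2 peaks there, of 1352 and 288. This was the largest H1047R peak of all the windows, and in E545K it was second to the first start of IL1R1. The summit was at 113078733 in E545K and at 113078104 in H1047R and WT. An AP-1 match lies within 100 bp of the H1047R and WT summit and none within 100 bp of the E545K summit, as the sequences above show.

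IL1RN, which encodes the IL-1 receptor antagonist (ENSG00000136689.20, 113099315 to 113134016), is known to make a secreted form and, from an upstream start, an intracellular form common in epithelial cells. Its canonical promoter had no peak, with the nearest 1.69 kb away in E545K, 1.68 kb in H1047R and 1.67 kb in WT. The first coding start, at 113117893 and 9.7 kb upstream, had a peak of area 3477 in E545K, 3474 in H1047R and 2768 in WT. Summit −log10 p was 9.24, 9.35 and 8.59, and the ranks were 91.2, 89.2 and 85.1. This start was therefore among the more accessible sites of the windows in each list. Its window held 7 peaks in E545K, 10 in H1047R and 6 in WT. A peak 12.8 kb upstream of the canonical start, chosen after its values were seen, had areas of 403 in E545K, 810.3 in H1047R and 294 in WT, and ranked 37.6 points higher in H1047R than in WT.

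**Figure D3:**
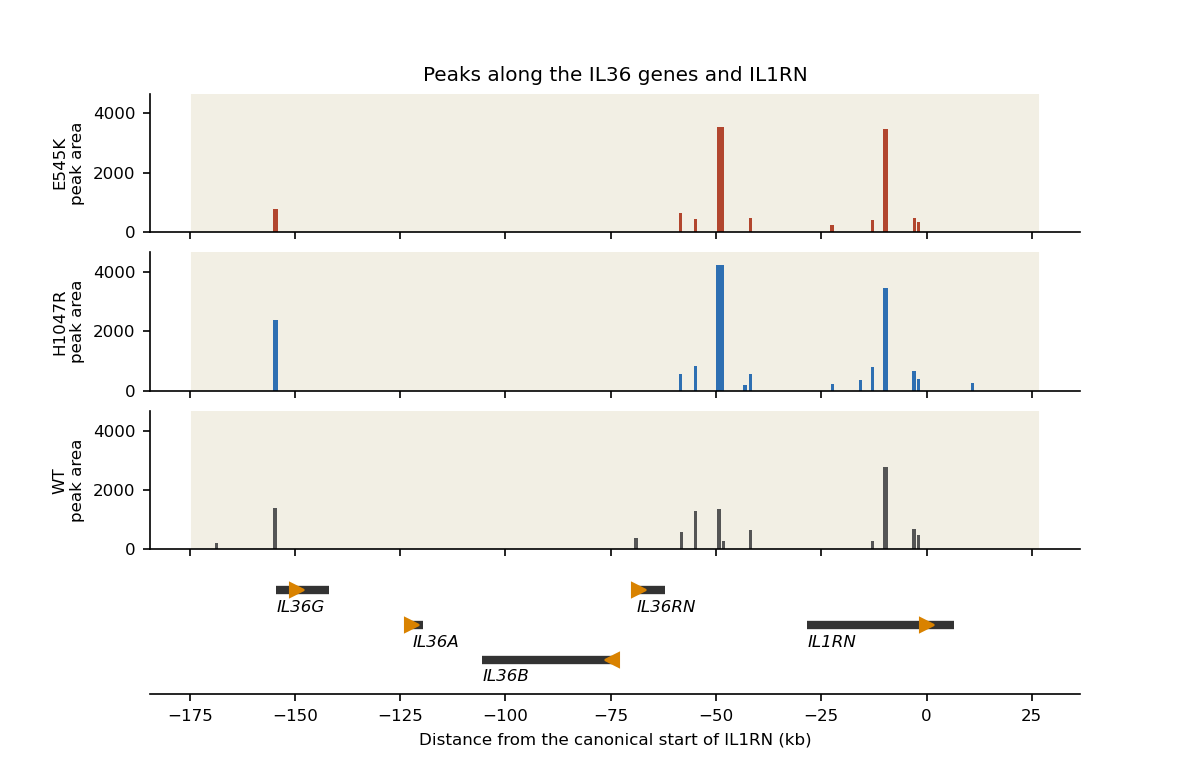
Area of each peak along the IL36 genes and IL1RN in E545K, H1047R and WT (linear scale), against distance from the canonical IL1RN start in kb; shading marks the gene windows, bars below mark gene bodies and arrowheads canonical starts. The E545K and H1047R peaks in the gap between IL36RN and IL1RN have areas of 3525 and 4239, against 1352 and 288 for the WT pair, and no bar falls near IL36A.

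Merging touching peaks across the lists gave 55 regions in the windows. Of these, 32 (58.2%) held a peak of each list, against 61.2% of all 120615 regions. A peak in both knock-ins and not in WT was found in 3 regions (4.62% of all regions), in H1047R and WT alone in 1, the IL1RL2 start (9.76%), and in E545K and WT alone in 0 (2.13%). E545K alone held 2 (4.52%), H1047R alone 6 (11.0%) and WT alone 11, or 20.0%, against 6.73% of all regions. Of the 11 regions of WT alone, 9 lay along the receptor genes. They were small, with areas of 209 to 368 and a median of 234. When each list was reduced to its 89416 strongest peaks, which removed 10 of these 11, WT peaks without an E545K partner numbered 2 of 34 instead of 12 of 45, or 5.88% against 15.3% of all WT peaks then kept.

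**Figure D4:**
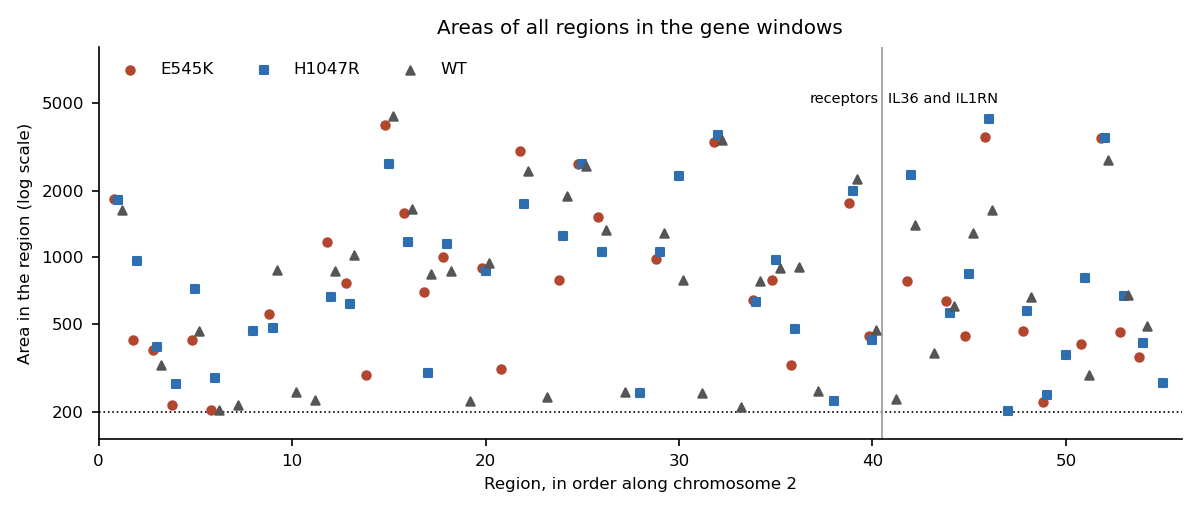
Area in each of the 55 regions in order along chromosome 2 (log scale), for E545K, H1047R and WT; the dotted line is the smallest area called, 200, and the vertical line parts the receptor genes from IL36 and IL1RN. Regions with a symbol of 1 list alone lie between 201 and 465, near the dotted line.

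In the pairwise comparisons, 5 of 38 E545K peaks had no WT partner, 13.2% (exact 95% Clopper-Pearson interval 4.41 to 28.1, for counting error only) against 12.6% of the whole E545K list. In the other direction, 12 of 45 WT peaks had no E545K partner, 26.7% (14.6 to 41.9) against 20.3%. For H1047R, 9 of 43 peaks had no WT partner, 20.9% (10.0 to 36.0) against 17.9%. The largest departure from the background was for WT peaks without an H1047R partner, with 11 of 45, 24.4% (12.9 to 39.5) against 11.0%, and at equal list length this count was 1 of 34, 2.94% against 14.2% of all WT peaks then kept. Between the knock-ins, 2 of 38 E545K peaks had no H1047R partner, 5.26% (0.644 to 17.7) against 9.14%, and 7 of 43 H1047R peaks had no E545K partner, 16.3% (6.81 to 30.7) against 23.6%. Few of these were strong peaks. The WT and the H1047R peak at the IL1RL2 start had no E545K partner, and the H1047R peak upstream of IL1R2 had no WT partner. By count, 0 of 20 strong E545K peaks lacked a WT partner (2.55% of all strong E545K peaks) and 1 of 26 strong WT peaks lacked an E545K partner (2.13%). Of the strong H1047R peaks, 1 of 23 lacked a WT partner (2.95%), while 0 of 26 strong WT peaks lacked an H1047R partner (1.40%). Between the knock-ins, 0 of 20 strong E545K peaks (1.60%) and 1 of 23 strong H1047R peaks (2.87%) lacked a partner. With strength by summit value, 0 of 24 strong WT peaks lacked an E545K partner (1.79%), since the WT peak at IL1RL2 was then not strong.

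Of the 55 regions, 30 held 1 peak of each list and could be ranked. Their median rank difference was 1.42 points for E545K against WT, with 18 of 30 higher in E545K. For H1047R against WT it was −6.92 with 10 of 30 higher in H1047R, and for E545K against H1047R it was 4.72 with 23 of 30 higher in E545K. All regions had medians of −0.29, −0.24 and −0.03, and 47.7%, 48.0% and 49.7% of them stood higher in the list named first. Median peak width over a whole list was 539 bp in E545K against 466 bp in each of the others, and its part in ranks by area was not tested. Ranked by summit value, 21 of 30 regions stood higher in E545K than in H1047R. By area, 19 of 22 ranked regions along the receptor genes were higher in E545K than in H1047R, and 4 of 8 along the IL36 genes and IL1RN. Receptor regions that could not be ranked are not in this count. Among them, the peak upstream of IL1R2 had areas of 421 in E545K and 960 in H1047R. The IL1RL2 start had none in E545K and 2348 in H1047R. The other way, chr2:102050081-102050409 and chr2:102098848-102099072 had a small peak in E545K alone. Outside the central 95% of all regions lay 2 member regions for E545K against WT, 3 for H1047R against WT and 2 for E545K against H1047R.

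Most of the 10 genes had few CpG around their canonical starts. There the observed to expected ratio of CpG had a median of 0.235, against 0.728 over all genes. The ratio was below 0.3 for IL1R2, IL1RL1, IL36G, IL36A, IL36B, IL36RN and IL1RN, whose promoter peaks numbered 0 of 7 in E545K, 0 of 7 in H1047R and 1 of 7 in WT. All 3765 genes below 0.3 had a promoter peak in 21.8%, 22.6% and 22.0% of cases in the same lists. IL1R1, at 0.857, and IL18R1, at 0.763, fell among the 12787 genes at 0.6 or more, of which 86.2%, 86.6% and 85.9% had one, and IL1RL2 lay between at 0.477. The receptor genes with a promoter peak in each list were those with the most CpG. The bounds of 0.3 and 0.6 were chosen after the values were seen.

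AP-1 was the commonest of the 10 motifs near the summits of these peaks, within 100 bp of 47.4% of E545K summits (31.0 to 64.2), 46.5% of H1047R summits (31.2 to 62.3) and 42.2% of WT summits (27.7 to 57.8). Over all peaks the shares were 32.5%, 36.9% and 34.4%. The TEAD motif was near 28.9% (15.4 to 45.9), 23.3% (11.8 to 38.6) and 33.3% (20.0 to 49.0) of summits, against 17.4%, 16.7% and 18.1% over all peaks. The E545K and H1047R intervals for TEAD include the share over all peaks, and the WT interval does not. Searched over whole peaks, the WT interval included it, at 51.1% (35.8 to 66.3) against 36.2%. The H1047R interval then did not, at 53.5% (37.7 to 68.8) against 35.1%. These are a few of the many intervals that 10 motifs gave, and no difference was tested. The NF-kappaB motif was near 0, 0 and 1 summit, the last at the WT peak of the IL36RN promoter, against 3.04%, 3.41% and 2.99% over all peaks. A glucocorticoid receptor match was found near 1 summit in each list, the first start of IL1R1, whose sequence also holds 2 AP-1 matches. A match is a run of letters and not a shown binding site. The first TEAD match shown before the IL1RL2 start lies outside the called peaks, which begin at 102186853 in H1047R and 102186892 in WT.

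Of 36 other genes of IL-1 family signalling, 29 had a promoter peak in E545K, 30 in H1047R and 30 in WT, beside 67.7%, 68.1% and 67.4% of all genes. In each list alike, 27 of the 36 had one, beside 65.5% of all genes. Among the ligands, IL1A had areas of 1519 in E545K, 782 in H1047R and 1915 in WT, and IL1B had 1088, 898 and 1514. IL33, IL37, IL18RAP, which pairs with IL18R1, and IRAK3, an inhibitory IRAK, had none in any list. A peak in some lists was found for 5 of the 36, beside 4.55% of all genes. CCL20, a chemokine gene, had the pattern of IL1RL2, with no peak in E545K, 1423 in H1047R and 307 in WT. CSF3, which encodes G-CSF, had that of IL36RN, with a promoter peak in WT alone, of area 2414. Knock-in peaks lay just beyond the CSF3 promoter, 1.25 kb from the start in E545K and 1.22 kb in H1047R. S100A7, an antimicrobial protein gene, had a peak of 1384 in H1047R alone. IL18BP, which neutralises IL-18, had 3028 in E545K, none in H1047R and 3038 in WT. IL1F10, an IL-36-like ligand gene next to IL36RN, had 636 in E545K, 562 in H1047R and none in WT within its promoter. A WT peak of area 601 overlaps both knock-in peaks and begins 1.16 kb from the IL1F10 start, just beyond the promoter.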

How the data were processed

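ATAC-seq was measured in MCF-10A cells, with 2 samples each of E545K, H1047R and WT. Per the submitters' processing notes, the authors used Trim Galore 0.4.0 with cutadapt and FastQC, SAMtools and Genrich 0.6.1 on build hg38. Which aligner they used is not given in those notes. The authors deposited 1 peak list per genotype, made from both samples. The signal column of the deposited lists is the area of a peak, and the next column is the −log10 p at its summit. The deposited lists also give the summit position. The column for adjusted values was empty of values and was not used. Depth is unknown and there are no values per sample, so no test across samples was made.

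Gene models were those of GENCODE release 44 and sequences were read from the hg38 genome. Peaks were counted once in the joint windows. Touching peaks of the 3 lists were merged into regions. CpG ratios were taken within 500 bp of the canonical start, and motifs within 100 bp of summits, on both strands. The further motifs searched were RUNX (TGTGGT), FOXO (GTAAACA), ETS (CCGGAA), C/EBP (TTNCGNAA), NF-kappaB and p53-p63. Computations used Python 3.11.15, numpy 2.4.6, pandas 2.3.3, scipy 1.17.1, pysam 0.24.0 and matplotlib 3.10.9. Of 12 counts compared with bedtools 2.31.1, 0 differed, and 2000 of 2000 peaks removed from a copy of the WT list were found.

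The genes, the pathway and marker lists and the motifs were chosen with earlier results of these data known. Named were the 10 genes, their neighbours, pathway genes with a promoter peak in some lists, IL1A and IL1B, the 3 largest regions of each list and the strong peaks without a partner. Other named regions were chosen after their values were seen. Alternatives were a stricter area, lists of equal length, other windows, promoters and partner rules, strength by summit and whole peaks for motifs. RNA was not analysed here, and some listed items are not reported here.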

Additional observations from a re-analysis of the deposited data

How the results depend on the processing

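The counts of promoters with a peak were within 1.5 times of the reported ones under every alternative run. With promoters of plus and minus 2 kb they were 3 in E545K, 4 in H1047R and 6 in WT. IL1RN then counted in each list and IL1RL1 in WT. With an area of at least 500, WT had 3, since the IL36RN peak of area 368 dropped out. A partner within 200 bp, or an overlap over at least 50% of the peak, left every count of unpartnered peaks within 1.5 times of the reported one. With an area of at least 500, the windows held 21 E545K, 28 H1047R and 27 WT peaks, covering 3.07%, 3.55% and 3.43%. Without a partner were then 0 E545K peaks against WT (10.5% of all peaks under this cut), 6 WT peaks against E545K (20.8%), 3 H1047R peaks against WT (17.6%) and 3 WT peaks against H1047R (11.3%). Between the knock-ins they were 2 E545K peaks (7.72%) and 9 H1047R peaks (24.2%), against 2 and 7 as deposited. With lists of equal length, without a partner were 6 E545K peaks against WT (15.8% of all peaks kept), 2 WT peaks against E545K (15.3%), 3 H1047R peaks against WT (14.7%), 1 WT peak against H1047R (14.2%), 5 E545K peaks against H1047R (14.6%) and 3 H1047R peaks against E545K (14.8%). Coverage was then 4.01% in H1047R and 3.77% in WT. With gene bodies alone, the windows held 22 E545K and 26 H1047R peaks, covering 3.83% in E545K, 4.01% in H1047R and 4.44% in WT. Without a partner were 2 of 22 E545K peaks against WT, 9.09% beside 12.6% of the whole list. For H1047R against WT it was 5 of 26, 19.2% beside 17.9%. Between the knock-ins it was 1 of 22 E545K peaks (4.55% beside 9.14%) and 5 of 26 H1047R peaks (19.2% beside 23.6%). WT peaks departed most. Of 30, 11 lacked an E545K partner (36.7% beside 20.3%) and 10 an H1047R partner (33.3% beside 11.0%). With 50 kb on each side, 11 of 53 H1047R peaks had no E545K partner, 20.8% beside 23.6% of the whole list. Coverage was then 3.74% in E545K, 4.22% in H1047R and 3.96% in WT. By summit value, 0 strong WT peaks had no E545K partner. Fewer peaks or other windows enter these counts by construction. Searching whole peaks moved 9 of 30 motif shares beyond their counting interval and left 21 within it.

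No paired analysis was possible because both samples of a genotype were pooled into 1 list. For the same reason leaving out a sample was not run. Depth is unknown, so a missing peak says only that no area of 200 or more was called, and small regions of 1 list alone are the least secure.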

Other observations

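Peaks within 20 kb beyond the windows were looked at after the other values were seen. A WT peak lay at chr2:102273798-102274186, between IL1RL2 and IL1RL1, with an area of 992, and it was a strong peak with no partner in E545K or H1047R. Near the start of LINC01127, a long noncoding RNA gene upstream of IL1R2, E545K had no peak, H1047R had 2 peaks of area 1769 and 429, and WT had 1 of area 544.8. That is the same set of lists as at the IL1RL2 start. Upstream of IL36G, 4 peaks were shared by the 3 lists, among them one at 112938865 to 112939240 in E545K, with areas of 397 in E545K, 877 in H1047R and 318 in WT.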
